A study of Mus musculus with 9 samples.

Results

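Müller glia are the radial glia of the retina, and the 9 genes described here make the proteins by which these cells keep neurons supplied and their surroundings constant. A Müller cell takes up glutamate, converts it to glutamine, drains potassium and water through its endfeet, recycles retinoids, and secretes lipid-carrying and signaling proteins. In injured or ischemic retina, Müller glia are known to become reactive, a state in which intermediate filament proteins increase and homeostatic functions may be altered. The 9 members were Glul, Rlbp1, Slc1a3, Aqp4, Kcnj10, Dkk3, Clu, Apoe, and Sox9, chosen by gene symbol from a count table of 54532 genes, in which each symbol matched 1 row.

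The retinas came from 9 wild-type C57BL/6 mice, all aged P17, in 3 groups of 3. Oxygen-induced retinopathy (OIR) is produced by keeping pups in hyperoxia and then returning them to room air, so that the inner retina becomes ischemic. Control mice (1, 6, and 7) stayed in room air and carry the treatment label DMSO, OIR mice (3, 5, and 6) received the DMSO vehicle, and treated mice (2, 5, and 10) were OIR mice that received 32-134D, an inhibitor of the hypoxia-inducible factors (HIFs), as 1 intraocular injection at P12. The dose is 70 ng/μl in the study design. The tissue is whole retina, so for every gene below, fewer cells of a type and less RNA per cell cannot be told apart.

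Total counts ranged from 16028731 to 27213184 per mouse, and the 9 members held between 0.558% and 1.28% of them. All 9 members passed the filter on low counts, as did 22 of 22 other genes known to be enriched in Müller glia, such as Lhx2, Rax, Sox2, and Vim. Treated mouse 2 stood apart: lens crystallin genes took 15.8% of its counts and at most 0.186% in the other mice, and results are therefore also given without it. Differences between groups were tested with edgeR's quasi-likelihood test across 17540 genes, and a gene was called, or said to have risen or fallen, when its Benjamini-Hochberg adjusted p was below 0.05 in that fit of all 9 mice. Calls by edgeR without treated mouse 2 and by DESeq2 on the 2 groups compared are named as such. Levels are CPM, counts scaled to a common library size by trimmed means (TMM), and differences are log2 fold changes with their standard error (SE).

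Per length of transcript (RPKM, the CPM divided by the gene length in kilobases), the members spanned a wide range in control retina. Apoe, the main lipid carrier secreted by glia, was at 1061 ± 310 RPKM (SD, n = 3), and Glul, the glutamine synthetase, was at 807 ± 155, with overlapping ranges. Clu (clusterin, a secreted chaperone and apolipoprotein) at 307 ± 31.9 RPKM and Dkk3 (a secreted Dickkopf-family glycoprotein) at 304 ± 64.0 overlapped each other below these. Rlbp1, the cellular retinaldehyde-binding protein, stood alone at 182 ± 23.1 RPKM. The water channel Aqp4 (19.3 ± 5.12), the glutamate transporter Slc1a3 (19.0 ± 1.64), and the inwardly rectifying potassium channel Kcnj10 (16.3 ± 2.20) overlapped their neighbors, and the transcription factor Sox9 was lowest at 6.46 ± 0.780 RPKM.

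This order was largely kept in OIR retina, with differences at its top and within the group of transporters and channels. Apoe was at 1790 ± 452 RPKM in OIR mice and no longer overlapped Glul, which was at 829 ± 44.9. Slc1a3 was at 36.7 ± 7.91 RPKM, above Aqp4 at 29.4 ± 10.2 and Kcnj10 at 21 ± 5.9 in mean, although the ranges of neighbors overlapped. In treated mice, Apoe (750 ± 124), Glul (620 ± 295), Dkk3 (350 ± 83.8), and Clu (345 ± 162) overlapped from neighbor to neighbor. Slc1a3 at 29.3 ± 3.64 RPKM was separate from Aqp4 at 16.7 ± 4.50, and Sox9 at 12.1 ± 3.48 overlapped Kcnj10 at 11.9 ± 1.59.

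**Figure D1:**
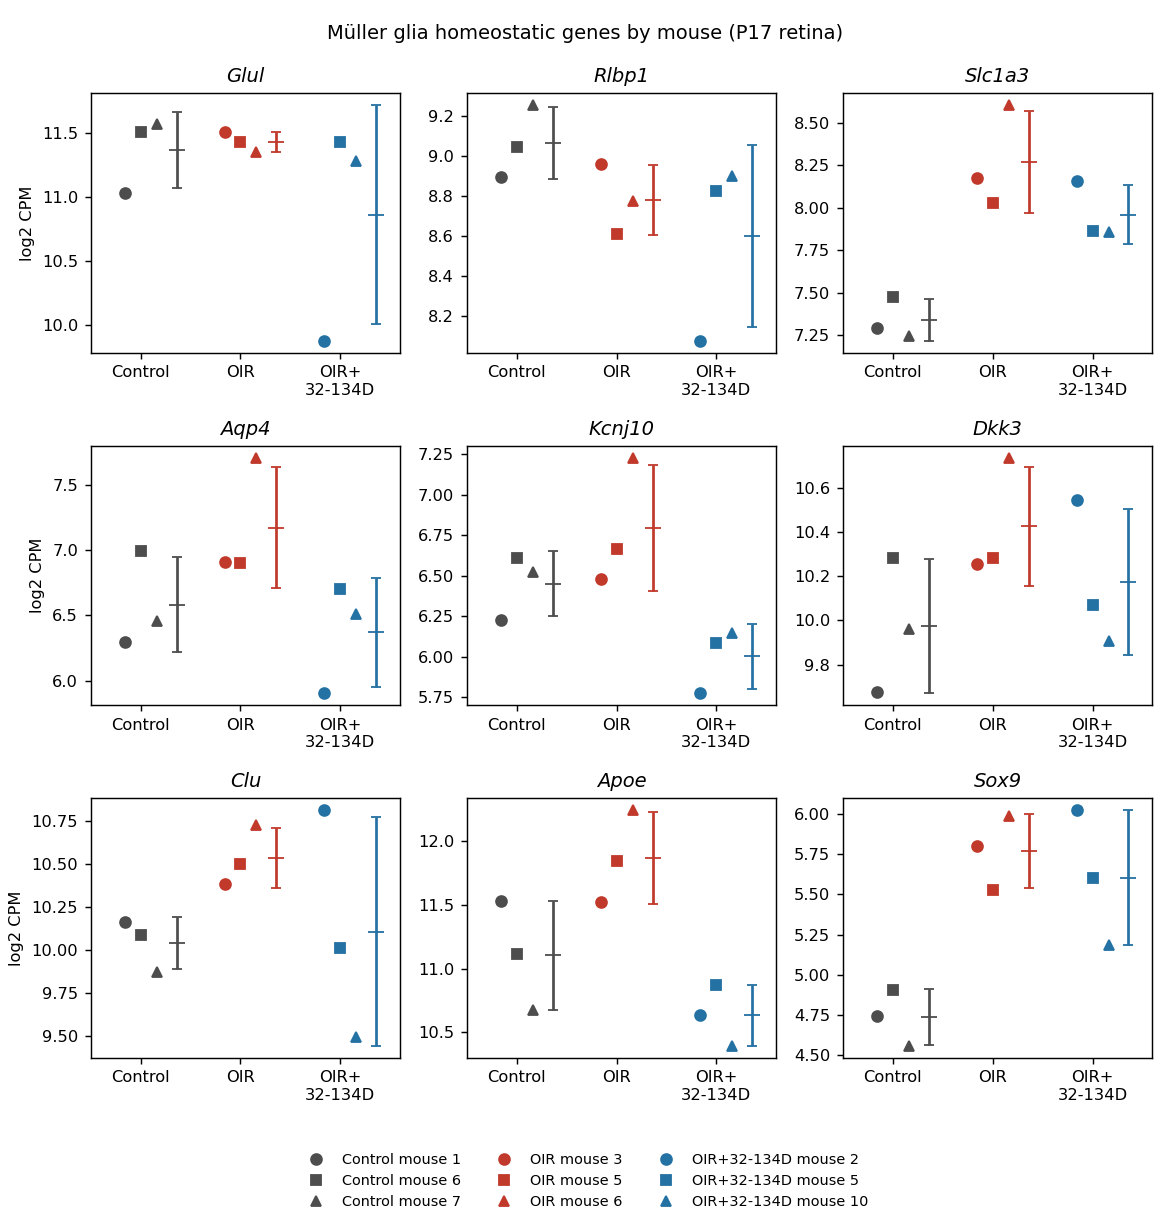
The level of each member is plotted as log2 CPM (y axis) for each mouse of the control, OIR, and OIR+32-134D groups (x axis), with symbols for single mice and the bar beside them giving the mean ± SD of 3 mice. The control mice lie below both other groups for Slc1a3 and Sox9, the treated mice lie below the OIR mice for Aqp4, Kcnj10, and Apoe, and treated mouse 2 is the lowest of all 9 mice for Glul and Rlbp1.

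To see which homeostatic genes differed in ischemic retina, OIR mice were compared with control mice. Slc1a3 was the 1 member called, and it rose, with a log2 fold change of 0.95 (SE 0.16, adjusted p = 0.0447 by edgeR). Sox9 was higher by 1.04 (SE 0.21) but missed the threshold (adjusted p = 0.0564). No member was called lower, and 8 of 9 had a higher mean in OIR mice. Of all 17540 genes, 165, or 0.941%, were called in either direction. With sex as a covariate, or without any 1 of the 3 control mice, the 3 OIR mice, or treated mouse 5, edgeR called 0 genes, so every gene said to have risen or fallen in OIR mice lost its call in those fits.

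At an unadjusted p below 0.05, 3 members (Slc1a3, Apoe, and Sox9) were higher and 0 were lower, while 11.1% of all genes were higher and 12.7% lower by the same rule. All OIR mice lay above all control mice for 3 members (Slc1a3, Clu, and Sox9) and below for 0, against 15.9% and 17.2% of all genes. Without treated mouse 2, and also by DESeq2 on the 2 groups, Aqp4, Dkk3, and Clu joined the higher members, making 6, and Rlbp1 was lower. The edgeR fit without that mouse had 12.2% of all genes higher and 16.5% lower, and only 2 members, Slc1a3 and Sox9, were higher without OIR mouse 6 or control mouse 7. The median log2 fold change of the 9 members was 0.50, or 0.29 without OIR mouse 6, and that of all genes tested was 0.03. Without treated mouse 2, Slc1a3 (adjusted p = 0.00714) and Sox9 (adjusted p = 0.0071) were both called by edgeR, as were 12.5% of all genes.

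The upstream sequence of 3 members is shown because these members carry the differences below: Slc1a3 was the called member, and Apoe and Kcnj10 differed most between treated and OIR mice among members with such a sequence at hand. Aqp4 differed as much as Kcnj10 (-0.82 for both), but no upstream sequence was found for it. Each sequence is the 250 bases before a RefSeq transcription start (GRCm38.p6), written 5′ to 3′ on the strand of the gene, with capitals on matches to the short SOX core ACAAT or the longer ACAAAG on either strand. The windows are chr15:8710808-8711057 on the minus strand for Slc1a3, chr7:19699189-19699438 on the minus strand for Apoe, and chr1:172340960-172341209 on the plus strand for Kcnj10.
Slc1a3: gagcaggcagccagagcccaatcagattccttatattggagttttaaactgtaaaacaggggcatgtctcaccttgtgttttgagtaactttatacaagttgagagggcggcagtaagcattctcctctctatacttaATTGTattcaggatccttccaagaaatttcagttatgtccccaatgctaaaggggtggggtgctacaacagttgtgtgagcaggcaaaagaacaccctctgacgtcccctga
Apoe: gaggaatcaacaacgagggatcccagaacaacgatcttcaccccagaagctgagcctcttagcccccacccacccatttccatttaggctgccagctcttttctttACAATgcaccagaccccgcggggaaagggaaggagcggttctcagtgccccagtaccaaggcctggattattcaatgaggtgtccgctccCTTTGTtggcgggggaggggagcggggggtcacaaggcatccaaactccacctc
Kcnj10: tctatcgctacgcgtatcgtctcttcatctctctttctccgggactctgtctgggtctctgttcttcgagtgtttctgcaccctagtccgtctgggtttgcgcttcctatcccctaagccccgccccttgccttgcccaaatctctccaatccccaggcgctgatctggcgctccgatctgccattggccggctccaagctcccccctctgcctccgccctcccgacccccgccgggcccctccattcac

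Windows were found in RefSeq for 5 of the 9 members (Glul, Rlbp1, Slc1a3, Kcnj10, and Apoe), 7 windows in all. The HIF core ACGTG, searched on both strands, was found in 0 of these 7, and 16.6% of 32851 mouse promoter windows of the same length hold it. ACAAT was found 112 bases before the Slc1a3 start and 144 bases before the Apoe start used above, and 27.7% of all windows hold it. ACAAAG was found 54 bases before that Apoe start and 42 bases before the Rlbp1 start, and 16.5% of all windows hold it. The windows of the other 2 RefSeq starts of Apoe hold neither SOX core. A match is only a run of letters, and a missing match says only that these letters are not in this window.

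Slc1a3 encodes GLAST, the main glutamate transporter of Müller glia (chr15:8634124-8710764, minus strand, GRCm38). Its level was 156.7, 177.8, and 151.4 CPM in control mice 1, 6, and 7. In OIR mice 3, 5, and 6, it was 289.5, 261.2, and 389.7 CPM. In treated mice 2, 5, and 10, it was 286.2, 232.6, and 232.0 CPM. Control mice were thus the lowest 3 of the 9, and treated and OIR mice overlapped.

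The rise in OIR mice was 1.94-fold, and treated mice were higher than control mice by 0.63 (SE 0.16, adjusted p = 0.140 by edgeR), with all 3 above all controls. The difference between treated and OIR mice was -0.33 (SE 0.16, unadjusted p = 0.0772), and -0.14 without OIR mouse 6. The call in OIR mice was lost with sex as a covariate (adjusted p = 0.0769), with total counts as the only scaling (0.0512), and when any 1 of control mice 1, 6, and 7, OIR mice 3, 5, and 6, or treated mouse 5 was left out of the edgeR fit (0.0875 to 0.180). The fold change itself then stayed between 0.77 and 1.07, the lowest without OIR mouse 6.

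Glul makes glutamine from the glutamate that Slc1a3 brings in (chr1:153899944-153909723, plus strand). It was at 2089.6, 2915.5, and 3040.5 CPM in control mice and at 2903.8, 2753.4, and 2605.3 CPM in OIR mice. The OIR range lay inside the control range, and the log2 difference was 0.04 (SE 0.34). In treated mice 2, 5, and 10, Glul was at 941.5, 2758.6, and 2482.8 CPM. Only treated mouse 2 lay below the control mice, and without it the difference between treated and OIR mice went from -0.42 (SE 0.35) to -0.04. The Glul exons share 116 bases with Teddm2 on the opposite strand and 93 with Mir8114, and whether the counts used strand is not given in the sources used here.

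Across 14 genes of glutamate uptake and the glutamate-glutamine cycle, both members included, Slc1a3 was the 1 gene called in OIR mice by edgeR on all mice. The median log2 fold change of this list was 0.00, with 7 genes higher and 7 lower. Slc1a2, a related glutamate transporter, differed by 0.34, and Got1, the cytosolic aspartate aminotransferase, by -0.45, and both were called by DESeq2 on the 2 groups and by edgeR without treated mouse 2. Between treated and OIR mice, 0 of 14 reached an unadjusted p below 0.05, and the members Glul and Slc1a3 had the largest negative differences of the list, although Glul was at -0.04 and Slc1a2 at -0.23 without treated mouse 2.

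Aqp4 forms the water channel of Müller endfeet (chr18:15389394-15403684, minus strand, as in the deposited table). It was at 78.5, 127.5, and 87.8 CPM in control mice, at 120.0, 119.4, and 209.6 CPM in OIR mice, and at 59.7, 104.2, and 91.0 CPM in treated mice. OIR mouse 6 was the highest and treated mouse 2 the lowest of all. OIR and control mice overlapped, with a difference of 0.61 (SE 0.29), or 0.29 without OIR mouse 6, and all treated mice lay below all OIR mice (-0.82, SE 0.29, unadjusted p = 0.0199, adjusted p = 0.990 by edgeR). Without OIR mouse 6, that difference was -0.49 (unadjusted p = 0.0930), and without treated mouse 2 its unadjusted p was 0.0615. Treated mice differed from control mice by -0.20 (SE 0.29), or by 0.00 without treated mouse 2.

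Kcnj10, the Kir4.1 channel that carries potassium out of the retina through Müller cells (chr1:172341210-172374085, plus strand), followed a similar order. Control mice were at 74.6, 97.5, and 91.7 CPM, OIR mice at 89.3, 101.4, and 149.9 CPM, and treated mice at 54.6, 67.8, and 70.7 CPM. The 3 treated mice were the lowest 3 of the 9. Kcnj10 was lower in treated than in OIR mice by 0.82 on the log2 scale (log2 fold change -0.82, SE 0.20, unadjusted p = 0.00259, adjusted p = 0.951 by edgeR) and differed between treated and control mice by -0.45 (SE 0.20, unadjusted p = 0.0498). Without treated mouse 2, the treated minus OIR difference was -0.68 and the treated minus control difference -0.33 (unadjusted p = 0.135). OIR and control mice overlapped, with a difference of 0.37 (SE 0.20), or 0.12 without OIR mouse 6.

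Of 15 genes for potassium and water handling and the dystroglycan anchor, 14 were measured, and 0 were called by edgeR on all mice in any comparison. Against control mice, OIR mice were higher for Dag1 (dystroglycan) by 0.90 (SE 0.29) and for Sntb1 (a syntrophin) by 0.43 (SE 0.15), each with groups that did not overlap. Dag1 was called by edgeR without treated mouse 2 (adjusted p = 0.0184) and by DESeq2 on the 2 groups (0.000248). The same DESeq2 fit called 1 gene of the list lower, Kcnj2. Between treated and OIR mice, the median of the list was 0.02, with 8 genes higher and 6 lower, and Aqp4 and Kcnj10 had the most negative differences. Aqp1, another water channel, was higher in treated mice by 0.77 (SE 0.26, unadjusted p = 0.0148), or by 0.50 without OIR mouse 6.

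Rlbp1 binds 11-cis retinoids in Müller glia and in the pigment epithelium (chr7:79374870-79387048, minus strand). It was at 474.8, 527.7, and 610.2 CPM in control mice, at 496.9, 390.1, and 437.4 CPM in OIR mice, and at 269.4, 453.3, and 476.3 CPM in treated mice. It was the only member with a lower mean in OIR than in control mice (-0.28, SE 0.21, unadjusted p = 0.217), and the groups overlapped. The treated minus OIR difference of -0.14 (SE 0.21) became 0.10 without treated mouse 2. The summed level of 12 pigment epithelium markers was 373–519 CPM in control, 335–646 in OIR, and 427–724 in treated mice, and its part in Rlbp1 was not tested.

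Among 12 retinoid-binding and visual cycle genes, Rdh10, a retinol dehydrogenase, rose in OIR mice by 0.94 (SE 0.17, adjusted p = 0.0485 by edgeR). It was at 97.6, 81.0, and 71.8 CPM in control mice, 142.5, 135.7, and 202.9 CPM in OIR mice, and 108.3 to 128.4 CPM in treated mice. Aldh1a1, a retinaldehyde dehydrogenase, differed by 1.35, and Rgr, a retinal G protein-coupled receptor of pigment epithelium and Müller glia, by -1.04, and both were called by DESeq2 on the 2 groups and by edgeR without treated mouse 2 but not with all mice. The list median in OIR mice was -0.39, with 8 of 12 genes lower, so Rlbp1 at -0.28 lay near the middle of it.

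Apoe had the largest difference between treated and OIR mice among the 9 members (chr7:19696109-19699188, minus strand). It was at 2954.0, 2223.5, and 1630.9 CPM in control mice, at 2948.4, 3671.5, and 4860.8 CPM in OIR mice, and at 1590.3, 1872.9, and 1344.5 CPM in treated mice. Every treated mouse lay below every OIR mouse, and control mouse 1 reached the level of OIR mouse 3. The treated minus OIR difference was -1.26 (SE 0.26, unadjusted p = 0.000962), or 0.419-fold, and -1.22 without treated mouse 2. This difference missed the threshold in edgeR (adjusted p = 0.838) and passed it in DESeq2 fitted on the 2 groups (adjusted p = 0.000114) and on all 9 mice (0.00264). OIR mice were above control mice by 0.75 (SE 0.26, unadjusted p = 0.0174, adjusted p = 0.133 by edgeR, and 0.00984 by DESeq2 on the 2 groups).

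Apoe is made by microglia as well as by Müller glia. Most microglia markers differed in the direction of Apoe in OIR against control mice and in treated against OIR mice. The 12 microglia and macrophage markers summed to 640.7, 272.6, and 140.5 CPM in control mice, 294.2, 429.3, and 627.0 CPM in OIR mice, and 212.6, 164.6, and 154.2 CPM in treated mice. All 12 had a lower mean in treated than in OIR mice, with a median log2 fold change of -1.37. By edgeR 0 were called, while DESeq2 on the 2 groups called 8, among them Cx3cr1 (adjusted p = 0.00715) and Csf1r (0.000213). Cx3cr1, the fractalkine receptor, was at 29.7, 30.5, and 43.8 CPM in OIR mice and at 11.7, 14.8, and 19.2 CPM in treated mice. Against control mice, 11 of 12 markers had a higher mean in OIR mice, with a median of 0.34. The 1 lower marker was Tmem119 (-1.01, SE 0.26, adjusted p = 0.0821 by edgeR), with all OIR mice below all control mice. It was called lower by edgeR without treated mouse 2 (adjusted p = 0.0397) and by DESeq2 on the 2 groups (0.0146), which called Cx3cr1 higher (0.0284). The part of microglia in the Apoe differences was not tested.

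**Figure D2:**
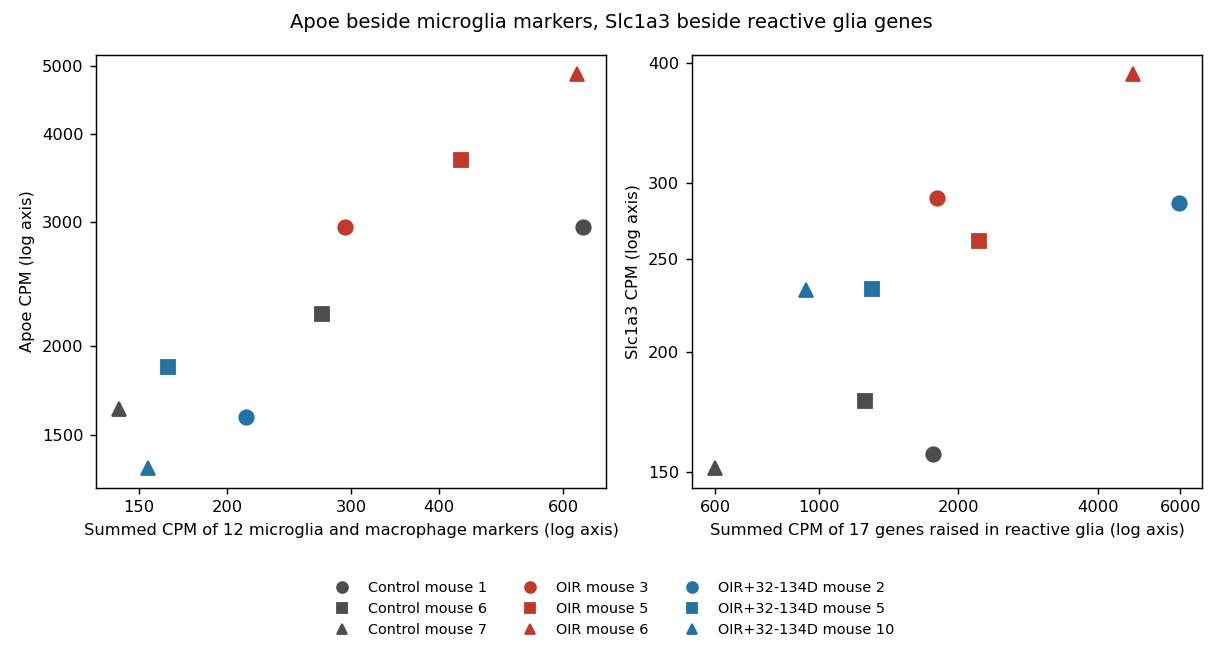
On the left, Apoe (CPM, log y axis) is plotted against the summed CPM of 12 microglia and macrophage markers (log x axis), and on the right, Slc1a3 is plotted against the summed CPM of 17 genes raised in reactive glia, with 1 point per mouse. The 3 treated mice sit at low values of both Apoe and microglia markers, whereas control mouse 1 holds 640.7 CPM of these markers at an Apoe level of 2954.0, and treated mice 5 and 10 lie above all control mice for Slc1a3 at 1302 and 941 CPM of the reactive genes, within the control range of 599–1766.

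Genes that load lipid onto apolipoprotein E were among those called in OIR retina. Of 13 genes for apolipoproteins, lipid export, and lipoprotein receptors, Abca1 rose by 1.73 (SE 0.31, adjusted p = 0.0469 by edgeR) and Abcg1 by 0.54 (SE 0.099, adjusted p = 0.0485); both are transporters that export cholesterol. Abca1 was at 67.3, 54.6, and 33.8 CPM in control mice, 147.1, 143.2, and 227.1 CPM in OIR mice, and 110.9, 83.1, and 59.9 CPM in treated mice. Abcg1 was at 110.0–128.0 CPM in control, 167.9–176.9 in OIR, and 112.2–134.6 in treated mice. All treated mice were thus below all OIR mice for both, with differences of -1.03 (SE 0.30) for Abca1 and -0.49 (SE 0.099) for Abcg1, neither called by edgeR, and Abcg1 called by DESeq2 on the 2 groups (adjusted p = 0.0221).

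Clu was at 1147.0, 1087.4, and 934.8 CPM in control mice, at 1336.1, 1444.6, and 1695.9 CPM in OIR mice, and at 1799.9, 1032.6, and 720.3 CPM in treated mice (chr14:65968483-65981547, plus strand). All OIR mice were above all control mice (0.50, SE 0.29, unadjusted p = 0.121). The treated group held both the highest and the lowest of the 9 mice, and the highest was treated mouse 2, the one with 15.8% crystallin counts. Without that mouse, the treated minus OIR difference went from -0.33 (SE 0.29) to -0.74, and the treated minus control difference from 0.16 to -0.26. The part of lens RNA in the Clu level of this mouse was not tested.

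Dkk3 was at 817.3, 1245.4, and 997.6 CPM in control mice, 1221.2, 1247.6, and 1708.3 CPM in OIR mice, and 1494.0, 1075.3, and 958.6 CPM in treated mice (chr7:112116017-112159057, minus strand). The 3 groups overlapped, with differences of 0.45 (SE 0.23; 0.28 without OIR mouse 6) in OIR and 0.21 (SE 0.23) in treated mice against control, the latter 0.00 without treated mouse 2. Of 11 genes for Dickkopf and Frizzled-related proteins and Kremen receptors, 9 were measured and 0 were called by edgeR on all mice. Kremen1, a Dickkopf receptor, was at 43.7–55.8 CPM in control and 94.3–184.0 CPM in OIR mice, a difference of 1.30 (SE 0.52, unadjusted p = 0.0335, adjusted p = 0.174 by edgeR), and it was called by edgeR without treated mouse 2 (adjusted p = 0.0103) and by DESeq2 on the 2 groups (3.57e-06). Sfrp1 differed between treated and OIR mice by 2.42, and by 0.20 without treated mouse 2.

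Sox9, a transcription factor of Müller glia and their progenitors (chr11:112782224-112787760, plus strand), was at 26.8, 29.9, and 23.5 CPM in control mice. It was at 55.6, 46.1, and 63.3 CPM in OIR mice and at 65.0, 48.4, and 36.3 CPM in treated mice. All 6 mice with OIR were above all 3 control mice. The difference from control was 2.06-fold in OIR mice and 1.86-fold in treated mice (0.90, SE 0.21, adjusted p = 0.116 by edgeR), while treated and OIR mice overlapped (-0.14, SE 0.21). Without treated mouse 2, the highest mouse, treated minus control was 0.67 (1.59-fold) and treated minus OIR was -0.35. The difference of OIR from control mice passed the threshold in DESeq2 (adjusted p = 0.000766 on all 9 mice) and missed it in edgeR with sex as a covariate (0.0873).

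SOX factors and Notch effectors, counted with Sox9 included, were mixed. Of 10 genes in this list, 8 had a higher mean in OIR than in control mice, with a median of 0.34, and 0 were called by edgeR on all mice. DESeq2 on the 2 groups and edgeR without treated mouse 2 each called 4: Sox9, Sox4, and Notch1 higher and Hes5 lower. Sox4 was higher by 0.68 (SE 0.18, adjusted p = 0.0823 by edgeR), and Sox2, which Müller glia express throughout life, by 0.33 (0.22 without OIR mouse 6). Hes5, a Notch target, was at 5.6–8.5 CPM in control mice and 1.2–3.5 CPM in OIR mice, a difference of -1.47 (SE 0.42, adjusted p = 0.0937).

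To ask whether HIF inhibition moved these genes in OIR retina, treated mice were compared with OIR mice. All 9 members had a lower mean in treated mice, from -0.14 for Rlbp1 and Sox9 to -1.26 for Apoe, with a median of -0.33 against 0.01 for all genes tested, of which 8539 of 17540 were lower. Bipolar cell markers were similar, with 9 of 10 lower in mean and a median of -0.28. All 10 ganglion cell, all 10 amacrine cell, and all 8 endothelial markers had a higher mean in treated mice, with medians of 0.98, 0.50, and 0.60. By edgeR, 0 members and 0 genes in all were called, a background of 0%, and 419 genes were higher and 404 lower at an unadjusted p below 0.05. By that unadjusted rule, 3 members (Aqp4, Kcnj10, and Apoe) were lower and 0 were higher, against 2.30% of all genes lower and 2.39% higher. The same 3 members had all treated mice below all OIR mice, and 0 had all above, against 5.39% and 3.74% of all genes. Without OIR mouse 6, Aqp4 no longer passed the unadjusted rule. DESeq2 on the 2 groups called 1 member, Apoe, and 0.454% of all genes. Without treated mouse 2, 8 of 9 members were lower, edgeR called 0 of 18116 genes (0%), and the median was -0.43. In that fit, Slc1a3, Kcnj10, Clu, and Apoe were lower at an unadjusted p below 0.05 and Aqp4 was not, with 8.35% of all genes higher and 4.69% lower.

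Treated mice were also compared with control mice. By edgeR 0 members were called, with 0.0228% of all genes called, and 0.0166% without treated mouse 2. At an unadjusted p below 0.05, 2 members (Slc1a3 and Sox9) were higher and 1 (Kcnj10) was lower, against 10% and 8.60% of all genes. Kcnj10 no longer passed with sex as a covariate, with total counts alone, or when control mouse 6 or 7, OIR mouse 5, or treated mouse 2, 5, or 10 was left out. The 3 members were also the ones whose groups did not overlap, against 12.8% of genes with all treated mice higher and 12.2% with all lower. DESeq2 on the 2 groups called 2 members higher, Slc1a3 and Sox9, and 2.38% of all genes, and between OIR and control mice it called 4 members (Slc1a3, Clu, Apoe, and Sox9) and 16.2% of all genes. The comparisons share mice, so their values are given side by side and not as separate evidence.

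**Figure D3:**
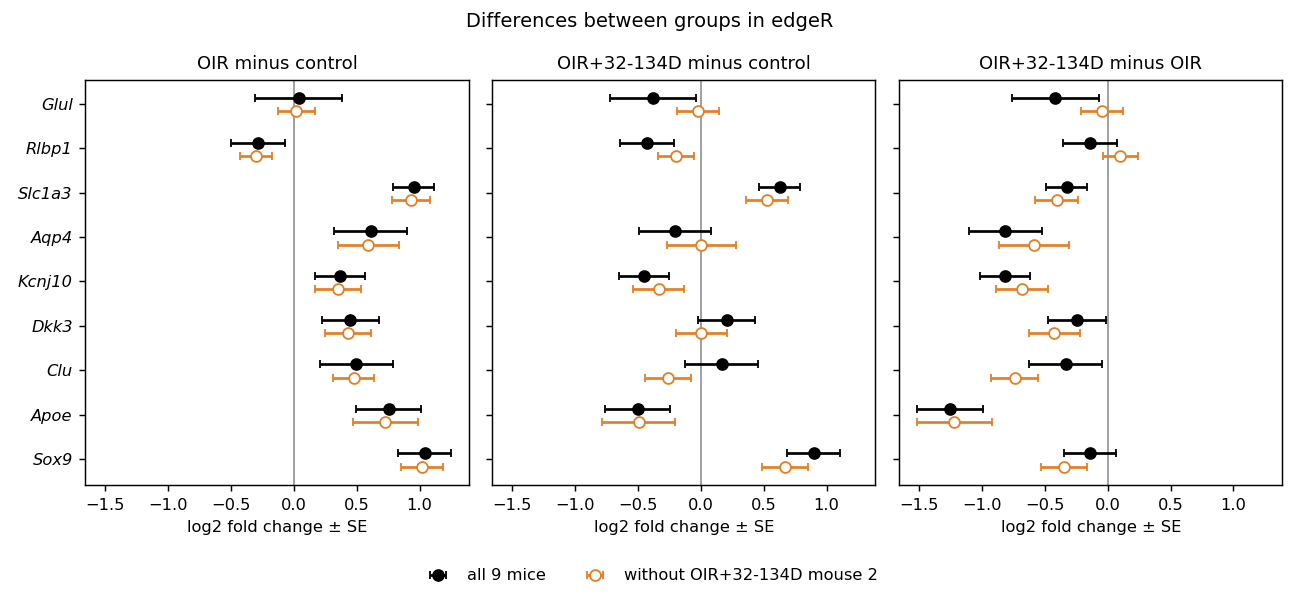
Log2 fold changes ± SE from edgeR (x axis) are plotted for the 9 members (y axis) in the 3 comparisons, with filled symbols for all 9 mice and open symbols without treated mouse 2. In OIR against control mice, Slc1a3 (0.95) and Sox9 (1.04) lie farthest to the right, and in treated against OIR mice all filled symbols lie left of 0, with Apoe at -1.26, while Glul moves from -0.42 to -0.04 without treated mouse 2.

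The members did not move as a block. Relative to the mean log2 level of the other 8 members of the same mouse, Slc1a3 was at -1.28, -1.34, and -1.36 in control mice, at -0.80, -0.94, and -0.74 in OIR mice, and at -0.29, -0.84, and -0.62 in treated mice. Sox9 was likewise higher relative to the others in all 6 OIR and treated mice (-3.75 to -2.70) than in the 3 control mice (-4.38 to -4.14). Rlbp1 was lower in all OIR mice (0.08, -0.29, and -0.55) than in all control mice (0.52, 0.42, and 0.90). Relative Apoe levels were 2.97, 3.35, and 3.36 in OIR mice and 2.49, 2.55, and 2.23 in treated mice. Control mice, at 3.49, 2.75, and 2.49, overlapped both of these groups. These ratios within a mouse show unequal change among the members, not which of them changed.

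**Figure D4:**
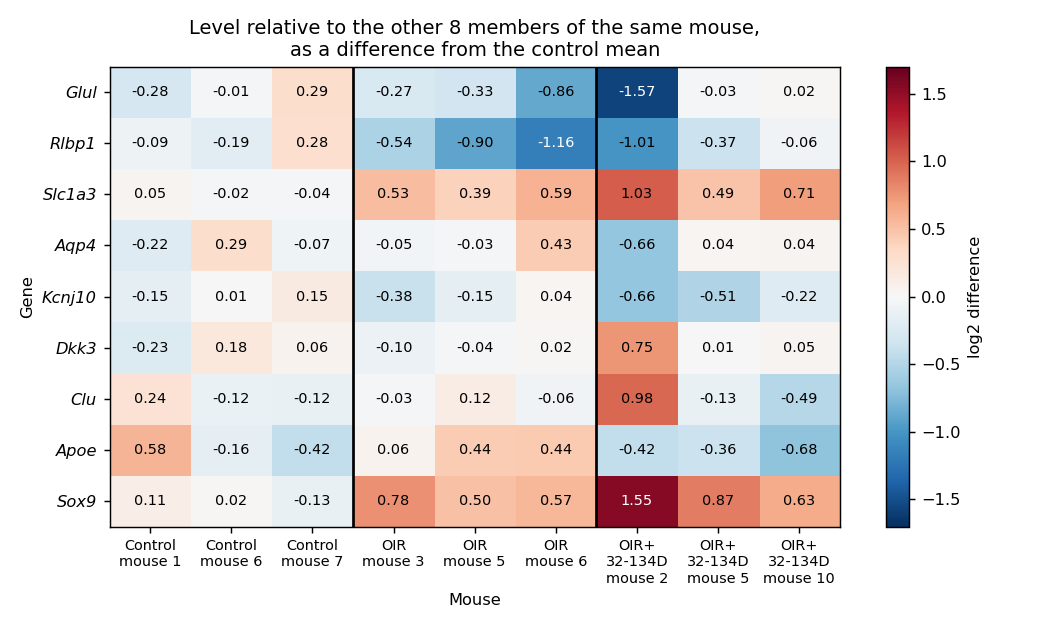
For each mouse (columns), the level of each member (rows) relative to the mean of the other 8 members is shown as a log2 difference from its mean in control mice, in color and as a printed value. Slc1a3 and Sox9 are positive in all 6 OIR and treated mice, at higher values than in any control mouse. Control mouse 1 is also above 0 for Slc1a3 (0.05) and Sox9 (0.11), and control mouse 6 for Sox9 (0.02). Rlbp1 is negative in all 6 but also in control mice 1 and 6, and treated mouse 2 differs most from the rest, with Glul at -1.57 and Sox9 at 1.55.

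Summed over the 9 members, levels were 7568–8432 CPM in control, 9461–12120 in OIR, and 6412–7646 in treated mice. Without Apoe, the sums were 4865–6209 CPM in control, 6364–7259 in OIR, and 4970–5773 in treated mice. OIR mice lay above the other groups by both sums. Glul made up 14.4% of the summed level in treated mouse 2 and 21.5% to 40.2% in the other mice.

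The 22 other genes enriched in Müller glia were examined beside the members. In OIR against control mice, 19 of 22 had a higher mean, with a median of 0.37. By edgeR on all mice 0 were called, without treated mouse 2 edgeR called 4 higher and 1 lower, and DESeq2 on the 2 groups called 5 higher and 2 lower. Nfia, a gliogenic factor, was higher by 0.41 (SE 0.089, adjusted p = 0.0612 by edgeR, 0.0269 without treated mouse 2, and 0.0222 by DESeq2 on the 2 groups) and Id1 by 0.46 (SE 0.12, adjusted p = 0.0867). Between treated and OIR mice, 20 of 22 were lower in mean, with a median of -0.24, and 0 were called by edgeR. Mlc1, a membrane protein of perivascular glial endfeet, was at 147.0, 153.3, and 213.8 CPM in OIR mice and 77.6, 110.9, and 96.1 CPM in treated mice (-0.85, SE 0.17, adjusted p = 0.838 by edgeR and 0.036 by DESeq2 on the 2 groups). Prdx6, a peroxiredoxin, differed by -0.87 (SE 0.23), or -0.50 without OIR mouse 6. Spc25 differed between treated and control mice by -1.57 (SE 0.31, adjusted p = 0.102 by edgeR and 0.00161 by DESeq2 on the 2 groups). This difference was -1.24 without treated mouse 2, which was at 22.3 CPM. Spc25 was also low in OIR mice, at 60.2, 56.1, and 70.5 CPM, against at least 109.6 CPM in control mice. In OIR against control mice, it was called lower by edgeR without treated mouse 2 and by DESeq2 on the 2 groups.

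**Figure D5:**
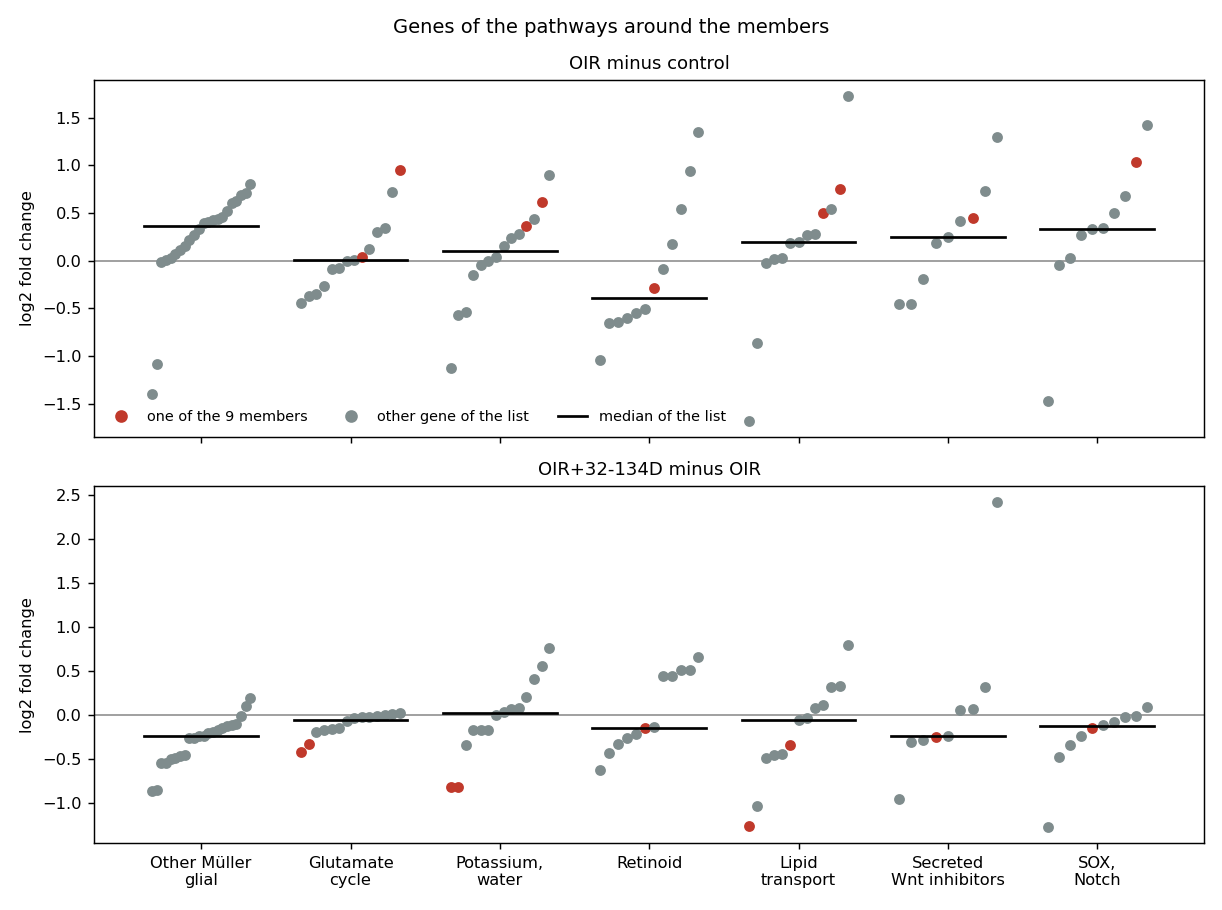
Log2 fold changes from edgeR (y axis) are plotted for each gene of 7 lists (x axis) in OIR against control mice (upper panel) and treated against OIR mice (lower panel), with the members in red and a line at the median of each list. Abca1 at 1.73 is the highest point of the lipid transport list in OIR mice, and Apoe at -1.26 is its lowest point in treated against OIR mice.

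Genes raised in reactive glia differed strongly between mice of the same group. The 17 measured genes of this list had a median difference of 1.53 in OIR against control mice, with 16 of 17 higher. By edgeR on all mice 0 were called, while edgeR without treated mouse 2 called 6 higher and DESeq2 on the 2 groups 7, including Nes, a progenitor intermediate filament, and Stat3, a mediator of cytokine signaling, in both. Gfap, the intermediate filament of reactive glia and astrocytes, was at 216.8, 157.0, and 58.2 CPM in control mice, 230.8, 316.4, and 702.7 CPM in OIR mice, and 398.1, 174.6, and 103.0 CPM in treated mice. Vim, the intermediate filament of all Müller glia, was at 556.7, 333.4, and 236.1, then 558.5, 529.8, and 727.2, then 1070.6, 493.4, and 386.9 CPM. OIR mouse 6 and treated mouse 2 had the highest summed levels of these genes, 4752 and 5975 CPM, against 599–2220 CPM in the others. They were also the 2 highest mice for Sox9, Dkk3, and Clu. For Aqp4 and Kcnj10, however, OIR mouse 6 was the highest of all mice and treated mouse 2 the lowest. Treated mouse 2 was also the lowest for Glul and Rlbp1. The treated minus OIR median was -0.13, and -2.03 without treated mouse 2, and the part of reactivity in the member levels was not tested.

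Markers of other retinal cells also differed between groups. Retinal astrocyte markers summed to 1007–1050 CPM in control, 820–1258 in OIR, and 751–1086 in treated mice. Of these 7 markers, 6 had a higher mean in OIR than in control mice, with a median of 0.73. DESeq2 on the 2 groups called Pdgfra higher. The 1 lower marker was Aldoc, a glycolytic aldolase also made in Müller glia, which held most of the summed level in control mice. Aldoc fell in OIR mice by 0.82 on the log2 scale (SE 0.13, adjusted p = 0.0407 by edgeR), from 690.5–889.1 to 410.2–473.3 CPM. All 10 ganglion cell markers and all 10 amacrine cell markers had lower means in OIR than in control mice, with medians of -1.98 and -1.34. By edgeR on all mice 0 were called, without treated mouse 2 edgeR called 8 ganglion and 9 amacrine cell markers lower, and DESeq2 on the 2 groups called 7 and 10. Otx2, a bipolar cell and photoreceptor factor, rose by 0.49 (SE 0.090, adjusted p = 0.0485 by edgeR). Of the 10 bipolar cell markers, 8 had a higher and 2 a lower mean in OIR than in control mice, with a median of 0.20. DESeq2 on the 2 groups called 2 of them higher and 1 lower. CPM are shares of a library, and the part of these other cells in the member differences was not tested.

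For each member, the genes with the most similar profile over the 9 mice were sought among 9140 genes, by the root mean square (RMS) difference of standardized log2 CPM. Sox9 and Slc1a3 had close matches (Tnpo1 at 0.136, Galnt7 at 0.176, and Ubap1l at 0.181 for Sox9, Tpr at 0.172, Tgfbr1 at 0.174, and Vat1l at 0.190 for Slc1a3). Each was the closest member to the other, at 0.314, with Sox9 at rank 47 for Slc1a3 and Slc1a3 at rank 69 for Sox9. The closest genes to Kcnj10 were Grik1 (0.233), Zfp219 (0.254), and Mlc1 (0.267), and its closest member was Aqp4, ranked 5. The closest genes to Aqp4 were Pccb (0.337), Frzb (0.397), and Kcnj10 (0.402). For Glul they were Abcd2 (0.280), Abca8a (0.303), and Sfxn5 (0.330), with Rlbp1 as the closest member at rank 50, and for Rlbp1 they were Car2 (0.199), Mgat5 (0.229), and Rasgrp1 (0.233).

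For the secreted members, other members ranked farther down, as they did for Rlbp1, whose closest member, Glul, ranked 370. For Apoe, the closest genes were Slc35f6 (0.332), Creg1 (0.351), and Wdr81 (0.368), and the closest member, Kcnj10, ranked 97. For Clu they were Dhx16 (0.241), Fxyd1 (0.248), and Gadd45b (0.255), with Dkk3 at rank 458. For Dkk3 they were Kank2 (0.264), Actl6a (0.273), and Adcy1 (0.275), with Slc1a3 at rank 345.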

How the data were processed

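Retinal RNA-seq of 9 mice was analyzed from 1 table of raw counts per gene with gene lengths, deposited by the authors without normalization. Their processing notes name CASAVA and HISAT; the counting tool, annotation, and strandedness are not given in the sources used here. Mice were grouped by their labels. Of the gene identifiers, 54409 were found in GENCODE M21, 98.33% at the same position, and coordinates are those of the table (GRCm38); Aqp4 has another position in GENCODE M21.

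All 9 mice were fitted together in edgeR 4.0.16 (R 4.3.3; TMM, filterByExpr by group, quasi-likelihood test, Benjamini-Hochberg adjustment over 17540 genes), for 3 comparisons. log2 CPM used a prior count of 2. The script was tested on simulated data. Alternatives were DESeq2 1.42.0, limma 3.58.1, other scalings and filters, sex as read from expression (1 female in control, 1 in OIR, and 2 in treated mice), and leaving out each mouse. Depth was at least 16028731 counts per mouse, so the spread between mice, and not counting error, limits precision for the members. Genes named beyond the members were those called in each list (at most 3) or else the 2 with the smallest unadjusted p, plus Gfap and Vim, and for likeness the 3 closest genes of at least 4 mean log2 CPM. Slc1a2 and Got1 in OIR mice, Aldh1a1, Sox2, and Rgr beside Rdh10 were added for their roles after values were seen. Kcnj2, Pdgfra, and Spc25 in OIR mice were also added after values were seen. Members and lists were chosen with earlier results of these data known. One gene named by this rule is not reported here.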

Additional observations from a re-analysis of the deposited data

How the results depend on the processing

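The count of members called higher in OIR against control mice was 1 and changed with the method: 0 with a fold limit added, total counts alone, or sex as a covariate, 2 with edgeR on the 2 groups, upper-quartile scaling, no filter, at least 10 counts in every mouse, or limma voom, 3 with DESeq2 on all mice, 4 with DESeq2 on the 2 groups, and 0 to 2 when 1 mouse was left out. Genes called higher (76) and lower (89) in that comparison became 20 and 33 with the fold limit, 778 and 1216 with DESeq2 on all mice, 958 and 1719 with DESeq2 on the 2 groups, 494 and 1277 with edgeR on the 2 groups, 28 and 9 with total counts, 194 and 338 without a filter, 172 and 204 with at least 10 counts, 917 and 1388 with voom, and 0 and 0 with sex; the higher genes became 128 with upper-quartile scaling and 49 with DESeq2 size factors. Leaving out 1 mouse gave 0 to 716 higher and 0 to 1556 lower.

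In treated against control mice, members called higher went from 0 to 2 with either DESeq2 fit and with voom. Genes called higher (2) and lower (2) became 395 and 430 with DESeq2 on all mice, 185 and 184 on the 2 groups, 10 and 8 without a filter, 460 and 466 with voom, and 0 and 0 with edgeR on the 2 groups, DESeq2 size factors, crystallin genes taken out, or sex; the lower genes became 1 with the fold limit and 0 with total counts. Leaving out 1 mouse gave 0 to 3 in each direction. In treated against OIR mice, 1 member was called lower by either DESeq2 fit, which called 19 and 18 genes higher and 14 and 57 lower (all mice, 2 groups), and 1 gene was called lower without a filter and with voom.

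Directions reversed under voom for Glul in OIR against control mice (-0.0197), Dkk3 (-0.0799) and Clu (-0.131) in treated against control mice, and Rlbp1 in treated against OIR mice (0.0159). Leaving out 1 mouse gave ranges that crossed 0 for Glul in OIR against control mice (-0.114, without control mouse 1, to 0.143), Aqp4 (-0.378 to 0.0308, above 0 without control mouse 6 or treated mouse 2) and Clu (-0.263, without treated mouse 2, to 0.423) in treated against control mice, and Rlbp1 (-0.290 to 0.101, the latter without treated mouse 2) and Sox9 (-0.350 to 0.0429, the latter without treated mouse 10) in treated against OIR mice. The cause was not tested.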
